A study of Mus musculus with 2 samples.

Results

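A summit is the position of highest signal within a ChIP-seq peak. Of 18804 ELF1 peaks in the mm9 list, 1461 (7.77%) had a summit 300 to 1000 bp from the nearest protein-coding transcript start of GENCODE M1, with no such start nearer. Of these displaced peaks, 712 lay upstream of the start and 749 downstream. They were compared with the 5132 peaks (27.3%) whose summit lay within 100 bp of a start. The choice used positions alone, and not the signal or sequence values. ELF1 is an ETS family transcription factor, and CH12.LX is an immortalized B-cell lymphoma line of mouse strain B10.H-2aH-4bp/Wts, from a female. The series held 2 biological replicates of ELF1 ChIP-seq in this line, in 1 group with no treatment and no second condition. In ChIP-seq, DNA bound to a protein is pulled down with an antibody and sequenced, and peaks are the places where fragments accumulate. The mm9 list was called on both replicates together, and each replicate had its own list of 300000 entries on mm10. All lists come from the same 2 replicates, so a replicate's list is not independent of the mm9 list. Read depth is unknown from these lists, intervals cover counting error only, and peaks are not replicates, so a p-value says only whether shares differ beyond counting error. RNA was not measured. A peak within 100 bp of the start was found at 13 of 29 B cell genes, 1 of 24 T cell markers and 2 of 19 myeloid markers, against 4991 of all 22225 protein-coding genes (22.5%).

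ETS factors bind DNA around a GGAA core through a conserved domain, and ELF1 is known as a regulator of lymphoid and housekeeping genes. Its preferred sites hold the core in the longer form CCGGAAG, which contains a CpG. Many housekeeping promoters lie in CpG islands, stretches rich in C, G and the CpG dinucleotide, and ETS sites there commonly sit just upstream of the start. Regulatory sequence can also lie in the first intron, and a gene can have start sites that an annotation does not list.

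The sequences under the strongest displaced summits are shown first, because the strongest peaks included 2 unlike kinds of site. Most displaced peaks were of neither kind. CCGGAAG was at 297 of 1461 (20.3%), and a tRNA gene at 18 of the 1171 that could be placed on mm10 (1.54%). The sequences are taken from NCBIM37, the mm9 build, and run 5′ to 3′ in the direction of the gene. CCGGAAG, or its reverse complement, is in capitals in the first set, which holds the 4 strongest upstream and the 4 strongest downstream peaks with that word. The upstream windows are chr8:72425552-72425581 (Tssk6, plus strand), chr17:30141215-30141315 (Zfand3, plus strand), chr4:155043563-155043663 (Mib2, minus strand) and chr8:73301161-73301261 (Pik3r2, minus strand). The downstream windows are chr2:38860760-38860789 (Rpl35, minus strand), chr14:65059451-65059551 (Msra, minus strand), chr11:117848157-117848186 (Pgs1, plus strand) and chr9:57612927-57612956 (Clk3, minus strand). Windows that could hold untranslated exon are cut to 30 bases around the word.
Tssk6: CTTCCGGccaccagcggaagtgaggcaacg
Zfand3: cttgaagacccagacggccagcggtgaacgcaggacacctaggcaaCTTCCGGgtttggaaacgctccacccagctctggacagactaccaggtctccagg
Mib2: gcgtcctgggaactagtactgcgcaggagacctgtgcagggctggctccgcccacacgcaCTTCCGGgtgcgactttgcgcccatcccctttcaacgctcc
Pik3r2: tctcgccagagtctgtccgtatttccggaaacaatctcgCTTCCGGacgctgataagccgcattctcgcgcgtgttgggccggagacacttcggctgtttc
Rpl35: ggaaggcaggaCTTCCGGgaagcggagggc
Msra: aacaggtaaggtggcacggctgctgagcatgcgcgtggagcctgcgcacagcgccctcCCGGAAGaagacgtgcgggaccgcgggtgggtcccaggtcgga
Pgs1: agttctcgcgcgCCGGAAGcggaagcggcg
Clk3: ggaggccagagCCGGAAGcggaagaggcgc

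The second set holds summits inside tRNA genes, which RNA polymerase III transcribes from promoter elements inside the gene. The B box is one of these elements, and GGTTCGA, a word at its core, or its reverse complement is in capitals. The windows are chr10:62892208-62892308 (Ctnna3, plus strand), chr9:123438532-123438632 (Sacm1l, plus strand) and chr2:118872476-118872576 (Casc5, plus strand), the 3 strongest of this kind with the word. The last window, chr11:68938684-68938784 (Aloxe3, plus strand), is the strongest upstream peak without GGAA within 50 bp of the summit, and it too lay in a tRNA gene.
Ctnna3: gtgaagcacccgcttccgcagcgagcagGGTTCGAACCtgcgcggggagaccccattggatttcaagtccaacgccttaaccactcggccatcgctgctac
Sacm1l: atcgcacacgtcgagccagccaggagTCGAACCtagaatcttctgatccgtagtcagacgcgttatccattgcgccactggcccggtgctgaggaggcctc
Casc5: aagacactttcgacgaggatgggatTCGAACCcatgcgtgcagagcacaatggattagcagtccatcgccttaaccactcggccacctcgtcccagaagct
Aloxe3: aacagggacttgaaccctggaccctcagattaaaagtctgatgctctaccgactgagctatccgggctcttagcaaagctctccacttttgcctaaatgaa

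Displaced summits were spread over both sides of the start, and the share downstream was 51.3% (95% exact interval 48.7% to 53.9%). The peaks within 100 bp leaned to the upstream side, with 3598 at or before the start and 1534 after it. Upstream, the density of summits fell from 171 peaks per 100 bp at 300 to 449 bp to 58.2 at 800 to 1000 bp. Downstream it was 135 and 78.1 over the same distances. Of the downstream peaks, 587 (78.4%) had the summit in the first intron, 88 (11.7%) in the first exon and 74 (9.88%) in neither. Of the upstream peaks, 587 (82.4%) lay outside every protein-coding transcript and 102 (14.3%) in an intron of one. The limits fell in a continuous spread. Just inside 300 bp were peaks at Sp2 (signal 355) and Fdft1 (113), and just outside it were Per1 (73.4) and 2010107G12Rik (58.7). At 1000 bp, Hip1r (173) and Dact3 (38.2) were just inside, and Sidt2 (66.8) and Flcn (187) just outside.

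**Figure D1:**
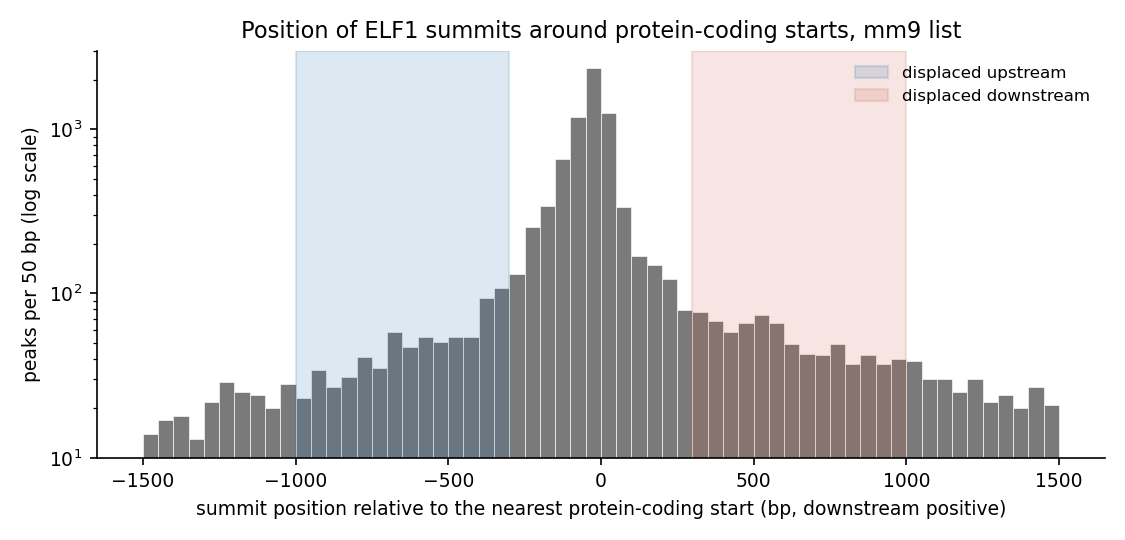
Number of ELF1 summits of the mm9 list per 50 bp (log scale) against position relative to the nearest protein-coding start, with downstream positions positive. Shaded spans mark the 712 displaced upstream and 749 displaced downstream peaks, which lie in the flanks of a peak of summits at the start.

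The 10 strongest upstream peaks had mm9 signals of 1077 to 1852, and the 10 strongest downstream peaks 521 to 727, so these ranges did not overlap. The strongest was 664 bp upstream of Aloxe3, a lipoxygenase of the skin barrier, with 1852 in the mm9 list, 198 in replicate 1 and 240 in replicate 2. These lists have different scales. Tssk6, a testis-specific kinase, followed at 481 bp with 1707, and with 240 and 257 in the replicates. That summit also lay 317 bp downstream of the RefSeq start of Ndufa13, a subunit of respiratory complex I. Ilf2, which encodes a subunit of an RNA-binding complex, had 1476 at 305 bp, with 170 and 213 in the replicates. Zfand3, a zinc finger gene, had 1187 at 767 bp, with 228 and 262. Mib2, a ubiquitin ligase of the Notch pathway, had 1077 at 306 bp, with 235 and 245. Fbxo31 (1233), Ctnna3 (1220), Sacm1l (1203) and Casc5 (1150) were also among the 10, and all 4 lay at tRNA genes. Of the upstream peaks named here, each with an entry in both replicates had the higher value in replicate 2.

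Downstream, Rpl35, a protein of the large ribosomal subunit, had the strongest peak, 390 bp into the annotated gene, with 727 in the mm9 list and 164 and 202 in the replicates. Msra, which reduces oxidised methionine, had 708 at 321 bp. Pgs1, an enzyme of cardiolipin synthesis, had 692 at 558 bp, with 164 and 193 in the replicates. Clk3, a kinase of splicing factors, had 640 at 724 bp, with 147 and 212. Bcl7b, a subunit of the SWI/SNF remodelling complex, had 598 at 477 bp in intron 1, and both replicates gave 169. Actr2, of the Arp2/3 complex that branches actin, had 562 at 476 bp beside a peak of 752 within 100 bp of its start. Rbl2, a relative of the retinoblastoma protein, had 523 at 708 bp in intron 1 and 173 at its start. D730045B01Rik (645), D2hgdh (567) and Strn (521) completed the 10. Another annotation put a start much nearer to several of them, since the RefSeq start lay 103 bp from the Rpl35 summit, 7 bp from that of Pgs1 and 22 bp from that of Clk3.

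Displaced peaks were weaker than peaks at the start. Their median signal was 64.8 (quartiles 46.6 and 116), against 143 (70.3 and 320) within 100 bp and 72.1 over the whole list. Because the scale of the signal is not stated, peaks were also ranked. Of the displaced peaks 648 of 1461 (44.4%, interval 41.8% to 46.9%) were in the stronger 50% of the list, against 3803 of 5132 (74.1%, 72.9% to 75.3%). The odds ratio was 0.279 (two-sided Fisher's exact test, p = 5.64e-96 after Benjamini-Hochberg adjustment over 13 tests). Peaks over 1000 bp from a start were weaker still, at 36.5% (odds ratio of displaced against these 1.39, adjusted exact p = 2.35e-08, tested after seeing the data).

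Upstream displaced peaks were stronger than downstream ones, as were upstream peaks nearer to the start. Their median signals were 72.7 and 60.3, and 361 of 712 (50.7%) against 287 of 749 (38.3%) were in the stronger 50% (odds ratio 1.66, Fisher's exact test, adjusted p = 2.92e-05 over 14 tests). Without the upstream peaks at tRNA genes the share upstream was 49.4% (odds ratio 1.57, adjusted exact p = 4.44e-05). Classed by RefSeq starts on mm10, the 29086 strongest entries gave an odds ratio of 1.69 in replicate 1 (53.3% against 40.4%) and 1.57 in replicate 2 (54.6% against 43.4%). Within the displaced range the gap was widest at the shortest distances. At 300 to 449 bp, 60.2% of upstream peaks (interval 53.9% to 66.2%) and 40.9% of downstream peaks (34.1% to 48.0%) were in the stronger 50%, while at 800 to 1000 bp the shares were 35.9% (27.2% to 45.3%) and 33.8% (26.4% to 41.7%). The same direction was seen nearer to the start. Within 100 bp the shares were 76.2% upstream (interval 74.8% to 77.6%) and 69.1% downstream (66.7% to 71.4%). Between 100 and 300 bp they were 65.2% (62.6% to 67.7%) and 54.8% (50.3% to 59.1%). Over 1000 and up to 2000 bp away, the intervals of the sides overlapped. The difference was therefore not particular to the displaced range. Whether the side and the distance act together was not tested.

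**Figure D2:**
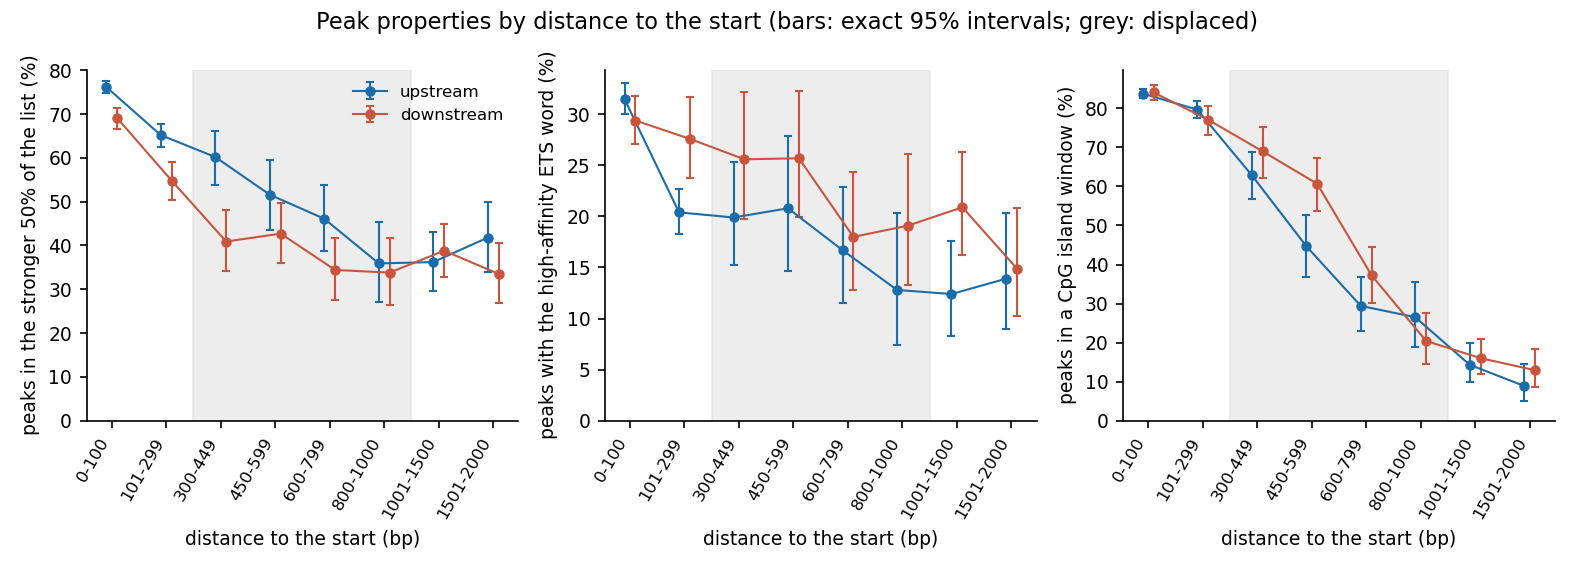
Share of peaks in the stronger 50% of the mm9 list, with CCGGAAG within 50 bp of the summit and in a CpG island window (percent, 3 panels), against distance to the start, for upstream and downstream summits. Bars are exact 95% intervals and grey marks the displaced range; from 300 to 1000 bp the share in CpG island windows falls from 62.9% to 26.5% upstream and from 69.0% to 20.4% downstream.

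Fewer displaced peaks lay in CpG islands. A 500 bp window around the summit with at least 50% GC and an observed to expected CpG ratio of at least 0.6 was counted as a CpG island window. It was met at 681 of 1461 displaced peaks (46.6%) and at 4305 of 5132 peaks within 100 bp (83.9%), with an odds ratio of 0.168 (Fisher's exact test, adjusted p = 1.17e-168). Over 1000 bp from a start the share was 5.50%, and over all peaks of the list 37.5%. Windows without a peak at the same distances were not counted. The test therefore cannot tell a trait of ELF1 peaks from the base composition at these distances. The sides did not differ beyond counting error, with 44.4% upstream and 48.7% downstream (adjusted exact p = 0.208). The lower signal of displaced peaks was seen in both kinds of window. In CpG island windows 51.5% were in the stronger 50% against 75.9% within 100 bp, and in other windows 38.1% against 64.6%, an odds ratio of 0.337 in each case (added tests, adjusted exact p = 5.63e-36 and 7.33e-26).

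CCGGAAG was sought on both strands within 50 bp of each summit. It was found at 297 of 1461 displaced peaks (20.3%) and at 1585 of 5132 within 100 bp (30.9%), an odds ratio of 0.571 (Fisher's exact test, adjusted p = 2.36e-15). All peaks of the list had it at 18.8%, and windows of the same length at all 45968 protein-coding starts at 5.71%. The direction of this difference depended on peak strength. In the stronger 50% the word was at 27.2% of displaced peaks and 38.9% of those within 100 bp (odds ratio 0.587, adjusted exact p = 1.88e-08). In the weaker 50% it was at 14.9% and 8.05%, higher in the displaced peaks (odds ratio 2.00, adjusted exact p = 2.33e-06). When the list was cut by signal into groups of 25%, only the strongest group had a lower share in displaced peaks, 33.6% against 48.8%, and in the next 3 groups the displaced shares were 22.5%, 17.6% and 12.0% against 19.4%, 9.66% and 5.79%. The intervals overlapped in the second group and not in the others. Outside CpG island windows the shares were 16.5% and 15.8% (odds ratio 1.05, adjusted exact p = 0.759), and inside them 24.7% and 33.8% (odds ratio 0.642, adjusted exact p = 3.64e-06). These splits were chosen after the data were seen, except the one at the stronger 50%.

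The GGAA core also varied with strength, and within the stronger 50% the difference changed direction. It was near the summit of 93.6% of displaced peaks and 90.1% of those within 100 bp (odds ratio 1.59, Fisher's exact test, adjusted p = 5.86e-05), against 66.1% of all start windows. In the stronger 50% the shares were 95.2% and 95.5% (adjusted exact p = 0.759). This joined opposite differences. In the strongest 25% the shares were 95.6% and 98.5%, and in the next 25% they were 94.9% and 89.7%. The intervals of the classes overlapped in neither group. In the weaker 50% they were 92.3% and 74.8% (odds ratio 4.01, adjusted exact p = 1.86e-25). The 2 classes also differed in base composition there, with 40.6% and 78.0% in CpG island windows. The GGAA shares were not split by CpG content. From the strongest 25% of the list to the weakest, GGAA fell from 98.5% to 71.6% of peaks within 100 bp, and from 95.6% to 90.7% of displaced peaks.

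**Figure D3:**
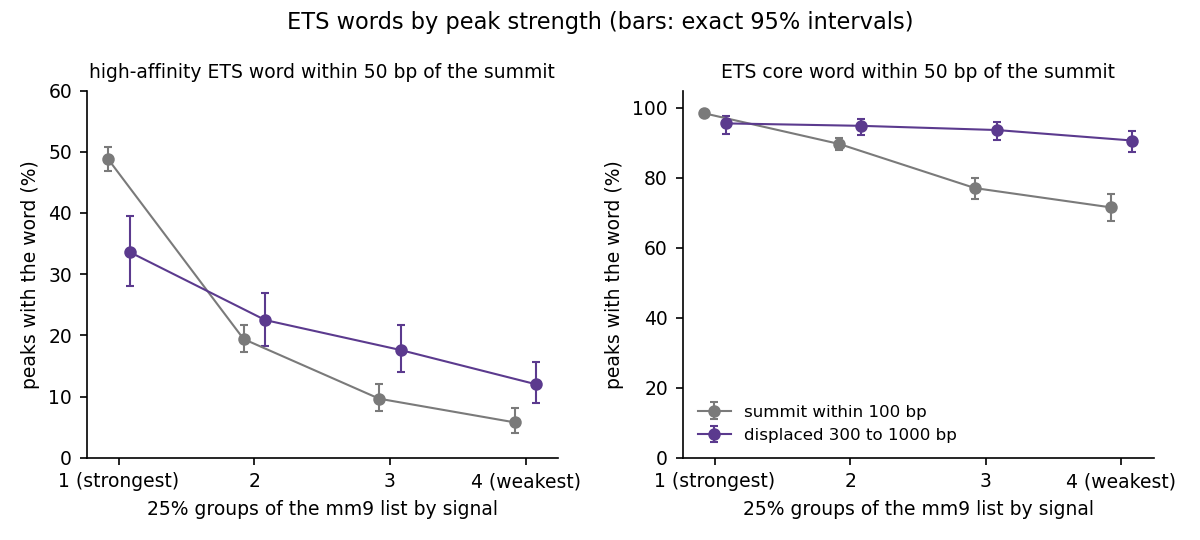
Share of peaks (percent) with CCGGAAG (left) and with the GGAA core (right) within 50 bp of the summit, by 25% groups of the mm9 list from strongest to weakest, for displaced peaks and peaks within 100 bp of a start; bars are exact 95% intervals. The lines cross: displaced peaks are lower in the strongest group (33.6% against 48.8% for CCGGAAG) and higher in the weakest (12.0% against 5.79%).

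Upstream and downstream peaks differed in the core and not detectably in the longer word. GGAA was at 646 of 712 upstream peaks (90.7%) and 721 of 749 downstream peaks (96.3%), an odds ratio of 0.380 (Fisher's exact test, adjusted p = 1.13e-04). It was 91.5% upstream without the peaks at tRNA genes (adjusted exact p = 2.34e-04). CCGGAAG was at 18.1% (interval 15.4% to 21.1%) and 22.4% (19.5% to 25.6%), with an adjusted exact p = 0.137.

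Where CCGGAAG was present at either place, it was mostly at the displaced summit rather than at the start. Of 1461 displaced peaks, 297 had CCGGAAG at the summit and 72 (4.93%) within 50 bp of the start. It was only at the summit in 287 and only at the start in 62. These counts are a description without a p-value, since each peak was chosen for a summit away from the start. At the mirrored position on the other side of the start it was found in 21 (1.44%). Among the 991 displaced peaks whose gene had no peak within 100 bp of a start, 209 (21.1%) had the word at the summit and 10 (1.01%) at the start, which is given as a description because the absence of a called peak chose these starts. Peaks were called where signal was highest, so start windows without a summit are places that the list did not call. Around the summit the word was concentrated within 40 bp. In the 20 bp just before and just after it, in genome direction, it was at 5.62% and 7.02% of upstream peaks and 8.68% and 6.81% of downstream peaks, against 0.562% and 1.20% at 41 to 60 bp before it.

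**Figure D4:**
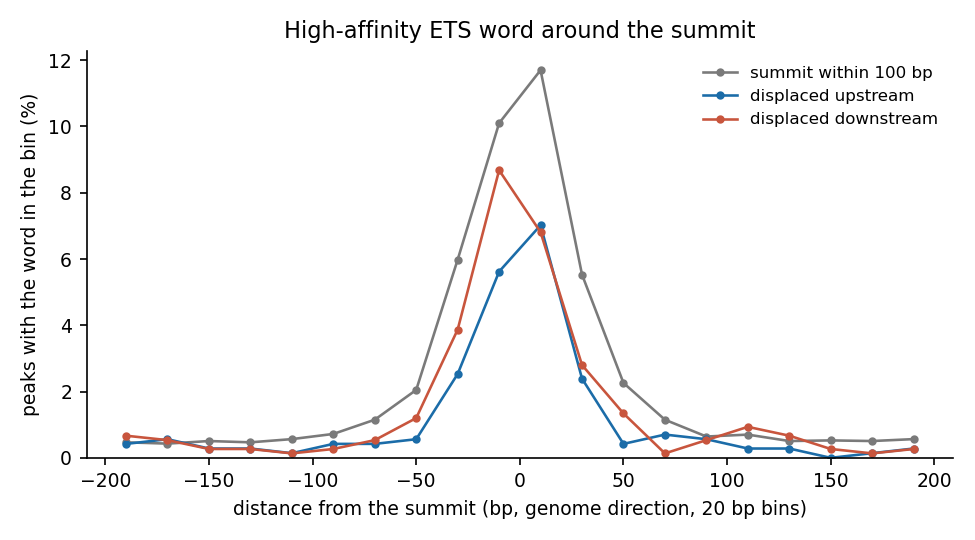
Share of peaks (percent) with CCGGAAG in each 20 bp bin from 200 bp before to 200 bp after the summit, in genome direction, for displaced upstream, displaced downstream and peaks within 100 bp of a start. All 3 lines peak at the summit, at 7.02%, 8.68% and 11.7% of peaks.

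Words of other promoter factors were less common at displaced summits than at start summits, and words of PU.1, RUNX and AP-1 more common. The latter were less common than over all peaks of the list. GGGCGG, bound by SP and KLF factors, was at 22.2% against 40.4% (odds ratio 0.422, Fisher's exact test, adjusted p = 2.25e-38; all start windows 25.1%). CCAAT, bound by NFY, was at 12.5% against 17.4% (adjusted exact p = 8.83e-06; 11.6%). TGACGTCA, the cAMP response element, was at 0.411% against 2.83% (adjusted exact p = 1.23e-09; 1.01%), and AAGATGGC, a YY1 word, at 0.479% against 2.75% (adjusted exact p = 1.07e-08; 2.01%). GAGGAA, part of many PU.1 sites, was at 16.2% against 13.0% (adjusted exact p = 0.00277; 10.3%). It includes the GGAA core. TGTGGT, a RUNX word, was at 5.41% against 3.84% (adjusted exact p = 0.0113; 5.04%), and TGANTCA, an AP-1 word, at 2.19% against 1.23% (adjusted exact p = 0.0113; 1.90%). Over 1000 bp from a start, GAGGAA was at 24.8%, TGTGGT at 9.72% and TGANTCA at 6.28%, so displaced peaks had shares between the other classes. Over all peaks these words were at 19.8%, 7.09% and 4.07%, GGGCGG at 20.3% and CCAAT at 13.6%. The displaced shares of TGTGGT and TGANTCA were close to those of all start windows, and the shares within 100 bp were lower. CAGCTG, an E box, and the longer IRF word did not pass the test (5.61% against 4.77%, adjusted exact p = 0.211, and 1.16% against 0.994%, adjusted exact p = 0.558). None of these words passed the test between upstream and downstream peaks. These shares were not split by CpG content or signal.

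Among the strongest upstream peaks were many whose summit lay in a tRNA gene. RefSeq lists 430 tRNA genes on mm10, and 1171 displaced peaks (80.2%) could be placed on mm10 through a RefSeq start whose sequence matched mm9 once. Of these, 18 of 572 upstream peaks (3.15%, interval 1.88% to 4.93%) had their summit inside a tRNA gene and 0 of 599 downstream peaks, which allows a share of up to 0.501% at 3 counts (exact upper limit 0.614%). A tRNA gene was within 100 bp of the summit at 2 of 4343 placed peaks within 100 bp of a start (0.0461%) and at 38 of 2688 placed peaks over 1000 bp away (1.41%). These shares are not tested, since the places of the genes bear on them. Of the 430 tRNA genes, 24 lie 300 to 1000 bp upstream of the nearest RefSeq protein-coding start and 1 lies as far downstream. Of the others, 0 lie within 100 bp, 7 lie between 100 and 300 bp and 398 lie over 1000 bp away. Of the 24, 23 had an optimal mm10 peak within 100 bp (95.8%, interval 78.9% to 99.9%), as did 221 of all 430 (51.4%). The share was also high among the 7 genes between 100 and 300 bp, with 6 (85.7%, interval 42.1% to 99.6%). It was 192 of the 398 over 1000 bp away (48.2%, interval 43.2% to 53.3%). High occupancy was therefore not particular to the displaced range. In the optimal list 221 of 29086 peaks (0.760%) were within 100 bp of a tRNA gene, and among its strongest 10% they were 179 of 2909 (6.15%).

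These 18 peaks took 13 of the 20 highest signals upstream in the mm9 list. By the same count with RefSeq starts, peaks at tRNA genes took 9 of 20 in the optimal list, 6 in replicate 1 and 11 in replicate 2. Their median signal was 893, from 112 at Acp6, a lysophosphatidic acid phosphatase gene, and 511 at Tceal3 to 1852 at Aloxe3, against 72.6 for the other placeable upstream peaks. The Aloxe3 summit was in the lysine tRNA gene n-TKctt27, that of Ilf2 in the methionine tRNA gene n-TMcat11 and that of Ctnna3 in the serine tRNA gene n-TStga3. Psmb3, a proteasome subunit gene, had a peak of 955 in the asparagine tRNA gene n-TNgtt8, with 149 in replicate 1 and 216 in replicate 2. Smarcc2, of the SWI/SNF complex, had 821 in n-TScga2, with 148 and 206. Wbp4, a splicing gene, had 848 in the glutamate tRNA gene n-TEttc4, with 109 and 190. Entries within 50 bp of the expected position were found for 18 of 18 in replicate 1, from 37.2 to 198, and for 16 in replicate 2, from 53.2 to 240. The medians over all placed upstream peaks were 31.0 and 40.7, so each of these entries was above its replicate's median. None of the 18 had CCGGAAG within 50 bp of the summit, 11 had GGAA, and 11 had the B box word GGTTCGA within 100 bp, which 1.10% of all peaks had. The gene next to the tRNA gene had a peak within 100 bp of its own start in 1 of 18 cases. Signal of the control library at these sites was not analysed here.

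**Figure D5:**
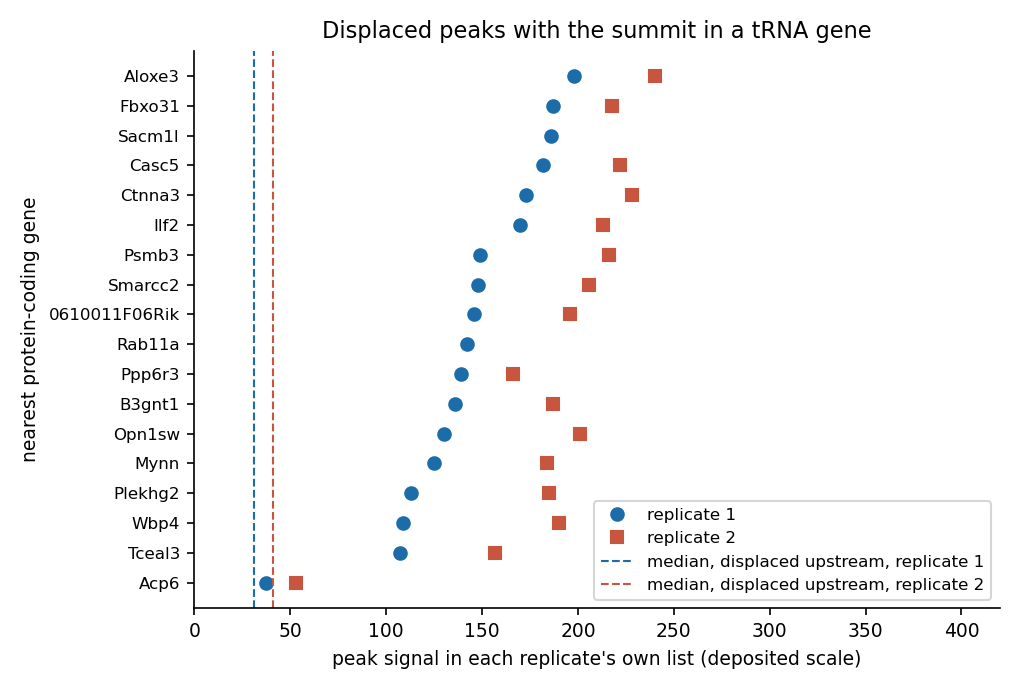
Signal of the 18 displaced peaks with the summit in a tRNA gene, in replicate 1 (circles) and replicate 2 (squares, 16 found), named by the nearest protein-coding gene; the scale is that of the deposited lists. Dashed lines are the medians of all placed upstream displaced peaks, 31.0 and 40.7, and each point lies above its own line.

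Some displaced summits sat at another start. A start of a transcript that is not protein-coding lay within 100 bp of 84 of 1461 summits (5.75%), with 28 upstream (3.93%) and 56 downstream (7.48%; Fisher's exact test, adjusted p = 0.0219). With RefSeq starts added, 128 (8.76%) had one, and their median signal was 84.8 against 63.4 for the rest. Mrpl39, of the mitochondrial ribosome, is an example, with a peak of 409 that lay 457 bp downstream of the GENCODE M1 start and 41 bp from the RefSeq start. Ets2, an ETS factor, had 38.9 at 337 bp and a RefSeq start 5 bp away.

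Many displaced peaks had a neighbour. Another summit lay within 1 kb of 676 displaced summits (46.3%) and of 818 summits within 100 bp of a start (15.9%). These shares are a description, since a displaced summit is by definition within 1 kb of a start, where peaks are dense. The share was 51.0% downstream and 41.3% upstream. The gene also had a peak within 100 bp of a start for 470 displaced peaks (32.2%). The same held for 28.3% of peaks over 1000 bp away and for 46.9% of all peaks, which include those at the start. In 324 of the 470 (68.9%, interval 64.5% to 73.1%) the displaced peak was lower than the gene's strongest peak at any of its starts. That strongest peak had a median 1.55 times the displaced signal (quartiles 0.855 and 3.13). Taking the strongest favours this direction. Rpl19, a ribosomal protein gene, had 947 at another of its starts and 107 at 593 bp downstream of the nearest one. U2af2, of the splicing machinery, went the other way, with 46.7 at the start, 405 at 569 bp downstream and 117 at 472 bp upstream.

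Most displaced peaks were found in both replicates. Of the 1171 placed on mm10, 996 (85.1%) had an entry within 50 bp in replicate 1, 1066 (91.0%) in replicate 2 and 930 (79.4%) in both. Within 100 bp of a start these shares were 90.3%, 94.0% and 86.3%, a difference that was not tested. The replicate lists hold background entries too. Among the 29086 strongest entries of each list 862 (73.6%) of the displaced peaks were found in both, against 84.0% within 100 bp of a start. Replicate 2 gave a median 1.29 times the signal of replicate 1 at displaced peaks and 1.27 times at start peaks. As a description across peaks, which share both libraries, Pearson's r of the log2 signals was 0.822 over 930 displaced peaks and 0.921 over 3747 start peaks. Applied to the lists themselves with RefSeq starts, the rule found 2226 displaced peaks in replicate 1 (56.4% downstream) and 1980 in replicate 2 (52.3%). In the stronger 50% of their list were 46.0% and 48.7% of them, against 82.2% and 80.4% of the peaks within 100 bp.

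Displaced peaks were counted over gene lists without a test, beside the 1351 of 22225 protein-coding genes (6.08%) that had one. B cell genes had one at 9 of 29 (31.0%, interval 15.3% to 50.8%), 2 upstream and 7 downstream, and 5 of these 9 also had a peak at the start. The strongest was at Cd79b, a signalling chain of the B cell receptor, with 376 in intron 1, 723 bp downstream, beside 163 at the start. Its partner Cd79a had 60.3 at 799 bp downstream and 116 at the start. Cd37, a tetraspanin of B cells, had 259 at 306 bp upstream, with 92.6 and 95.7 in the replicates. Spib, an ETS factor of B cells, had 133 at 605 bp downstream, with 49.4 and 61.8, and no peak at the start.

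The other B cell members were weaker. Ptpn6, a phosphatase that restrains receptor signalling, had 104 at 706 bp downstream. Tnfrsf13c, the BAFF receptor, had 84.8 at 917 bp, and Cd40, the receptor for T cell help, had 56.4 at 951 bp, both downstream. Ikzf3, or Aiolos, had 49.2 at 342 bp upstream, and Plcg2, a phospholipase downstream of the receptor, 41.2 at 332 bp downstream. Of the 9 peaks, 1 had CCGGAAG, at Cd79b, all had GGAA, and 2 were in CpG island windows, at Ikzf3 and Plcg2.

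Antigen presentation genes had a displaced peak at 6 of 18 (33.3%, interval 13.3% to 59.0%), with a median signal of 45.4. Psmb8, an immunoproteasome subunit, had 104 at 567 bp downstream and 61.2 at the start. H2-Oa, a class II modulator, had 55.8 at 425 bp, and Tap2, a peptide transporter, 49.0 at 945 bp, both downstream, and H2-Eb1, a class II chain, 41.8 at 961 bp upstream. ETS family genes had one at 6 of 25 (24.0%). Etv6, a repressor of the family, had 194 at 472 bp upstream, Elf2 188 at 750 bp downstream beside 145 at the start, and Etv1 50.7 at 918 bp upstream. Elf1 itself had 37.1 at 682 bp downstream and 38.0 at the start, near the lowest signal in the list, 36.1. Interferon signalling genes had one at 5 of 29 (17.2%), each upstream, and 1 of them downstream as well. That gene was Socs1, an inhibitor of JAK kinases, with 70.5 at 987 bp upstream and 63.1 at 396 bp downstream. Ifngr2, an interferon gamma receptor chain, had 116 at 466 bp, Jak2 50.7 at 560 bp and Irf5 49.9 at 837 bp, all upstream.

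Lists of housekeeping genes were nearer to the share over all genes, although most of their members had a peak at the start. Cytosolic ribosomal protein genes had a displaced peak at 7 of 79 (8.86%), oxidative phosphorylation genes at 5 of 90 (5.56%) and mitochondrial ribosomal protein genes at 1 of 76 (1.32%), while 58.2%, 63.3% and 68.4% had a peak within 100 bp of the start, against 22.5% of all genes. Proteasome genes had one at 5 of 39, DNA replication genes at 3 of 37, splicing genes at 4 of 38 and class switching and repair genes at 1 of 24. Atp5g1, of ATP synthase, had 404 at 313 bp upstream, with 88.2 and 144 in the replicates. Rpl22l1 had 157 at 604 bp downstream and 276 at the start, and Psma7, a proteasome subunit, 132 at 589 bp downstream. Cdt1, a replication licensing factor, had 141 at 430 bp downstream. Of the marker lists of other lineages, T cell, myeloid, skeletal muscle and hepatocyte markers had 1 each and neuron markers 0 of 19. These were Gata3 (142 at 700 bp downstream), Cebpe (61.3), Tnni2 (89.1) and Apob (43.8).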

How the data were processed

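ELF1 ChIP-seq peak lists of 2 biological replicates of CH12.LX were used. Per the deposited README text, the mm9 list came from both replicates' mm9 alignments, each replicate's relaxed mm10 list from its own alignments and a control, and the optimal and conservative lists (29086 and 27399 peaks) from the relaxed lists by the irreproducible discovery rate. Aligner and peak caller: not given in the sources used here. The deposited peak signal is the value of the caller on an unstated scale that differs between lists, so peaks were ranked by it within each list. Summit offsets were deposited in bp. The signal given at a gene's start is that of its strongest peak within 100 bp of any of its protein-coding starts.

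The members, gene lists and tests were chosen with earlier results of these data known. Distances on mm9 used GENCODE M1 starts on NCBIM37. RefSeq starts (GRCm38.p6) were used for mm10, and 96.7% of 21262 protein-coding starts were placed on NCBIM37 by the single exact match of their 300 bases around the start. A displaced peak was paired with a mm10 entry within 50 bp of the same offset from such a start, up to 10 kb away, in place of the planned match by symbol. No coordinates were converted. This pairing and the tRNA gene comparison were added after the data were seen.

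Shares have exact (Clopper-Pearson) 95% intervals, tests are Fisher's exact with a threshold of 0.05, and samples could not be compared by a p-value. Named peaks were the 10 strongest on each side, up to 4 of each gene list, all B cell and ETS family members and those nearest the limits, and for sequences the 4 strongest on each side with CCGGAAG. Some items that this rule names are not reported here. Peaks at tRNA genes were named after their values were seen. The scripts recovered planted differences when tested on simulated data. Python 3.11.15, scipy 1.17.1, pandas 2.3.3 and pysam 0.24.0 were used. Alternatives are given in the closing section.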

Additional observations from a re-analysis of the deposited data

How the results depend on the processing

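The weaker signal of displaced peaks kept its direction and passed the threshold under all 14 alternatives, with odds ratios from 0.184 to 0.337. That included each replicate alone (0.184 to 0.232). The excess of signal upstream over downstream did so under its 6 (odds ratios 1.57 to 1.81) and the CpG island difference under its 3 (0.153 to 0.309). As a description, CCGGAAG was more frequent at displaced summits than at their starts by 11.9 and 13.6 percentage points with windows of 25 and 100 bp. The lower CCGGAAG share kept its direction and passed under 10 of 12 alternatives (0.499 to 0.642). It reversed in the weaker 50% of the list, with an odds ratio of 2.00. In windows that are not CpG islands the odds ratio was 1.05 and did not pass the threshold, so no difference was detectable there. The cause was not tested. The count of 1461 displaced peaks was 648 in the stronger 50% of the list, 825 at 300 to 600 bp and 636 over 600 bp, which hold fewer peaks by construction. It was 1240 with RefSeq starts, larger with wider sets of GENCODE M1 starts (1617 with all) and 1253 without chromosome 11. The share downstream was 44.3% in the stronger 50% of the list, and 52.3% to 56.4% in single replicates. The share of displaced summits at another start was 3.22% within 50 bp and 7.67% within 200 bp. Upstream and downstream shares of CCGGAAG did not pass the threshold under any of 3 alternatives (odds ratios 0.685 to 0.817). Read depth per peak was not analysed here, so how depth limits weak displaced peaks is unknown.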
